A study of Mus musculus with 6 samples.

Results

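Intercalated cells are the acid-base cells of the connecting tubule and collecting duct, and 10 genes that mark them were followed in adult mouse kidney. The 10 were taken by name from the 22180 genes measured on the arrays, and all 10 were present, each through 1 transcript cluster (a set of probes summarised as 1 value per gene). Of these, 3 mark alpha cells (Slc4a1, Kit and Dmrt2), 4 mark beta cells (Slc26a4, Slc4a9, Hmx2 and Insrr) and 3 are shared by both types (Foxi1, Car2 and Car12). The series asked which transcripts change when Pax2 and Pax8, paired-box transcription factors of the nephron, are deleted in the adult. RNA of bisected kidneys was hybridised to 6 arrays, 3 labelled Pax28 dKO (replicates 1, 3 and 5) and 3 labelled Control (replicates 2, 4 and 6), with 2 females and 1 male in each group. The males are Pax28 dKO 1 and Control 4.

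The mice labelled Pax28 dKO are homozygous for floxed Pax2 and floxed Pax8 and carry Rosa26CreER, a tamoxifen-inducible Cre recombinase at the broadly active Rosa26 locus, so the deletion is not restricted by design to the collecting duct. The controls lack Cre, and the labels do not say which Pax2 and Pax8 alleles they carry. Both groups received tamoxifen in corn oil by intraperitoneal injection, 50 mg/kg on 3 consecutive days, in a first course at 8 weeks of age and a second at 10 weeks, and were sampled 14 days after the last dose. Because only the dKO group has Cre, an effect of active Cre itself and an effect of the deletion cannot be told apart. The labels do not state that each array is a separate animal, and p-values therefore reflect only how these samples vary, which may be technical.

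On the arrays labelled dKO neither targeted gene was lower, and Pax8 was called 2.58-fold higher (limma adjusted p = 0.0037), in all alternatives as well. Pax8 stood at 10.11, 10.59 and 10.39 log2 on dKO 1, 3 and 5 and at 9.09, 9.0 and 8.89 on controls 2, 4 and 6, and Pax2 at 6.11, 6.49 and 6.16 against 6.09, 5.77 and 6.08. The exons that Cre removes are not named, so a probe may lie outside the deleted part and would then check nothing. Directions below are those of the arrays labelled dKO.

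Alpha cells secrete protons into the urine through an apical proton pump and return bicarbonate to the blood through the basolateral anion exchanger AE1. Beta cells have the opposite polarity and secrete bicarbonate through the apical exchanger pendrin. Both arise under the forkhead transcription factor Foxi1, while Notch signalling favours the neighbouring principal cells, which carry water and sodium. Carbonic anhydrases supply both types with protons and bicarbonate from carbon dioxide and water.

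The alpha cell genes moved in opposite directions. Slc4a1 was 5.97-fold lower on the arrays labelled dKO, whereas Kit was 1.47-fold and Dmrt2 1.69-fold higher, and all 3 passed the test (limma, Benjamini-Hochberg adjusted p below 0.05 over all 22180 genes). None of the 4 beta cell genes passed, although 3 of them had an unadjusted p under 0.05, all lower, as had 10.5% of all genes in that direction (11.6% were higher at that cut, 22% either way). Of the shared genes, Car12 was 1.54-fold lower and passed, and Foxi1 and Car2 did not. In all, 2 of 10 members were called lower and 2 called higher, where 3.08% of all genes were called lower, 4.12% higher and 7.2% either way. The median log2 difference was -0.22 over the 10 members and -0.01 over all genes.

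**Figure D1:**
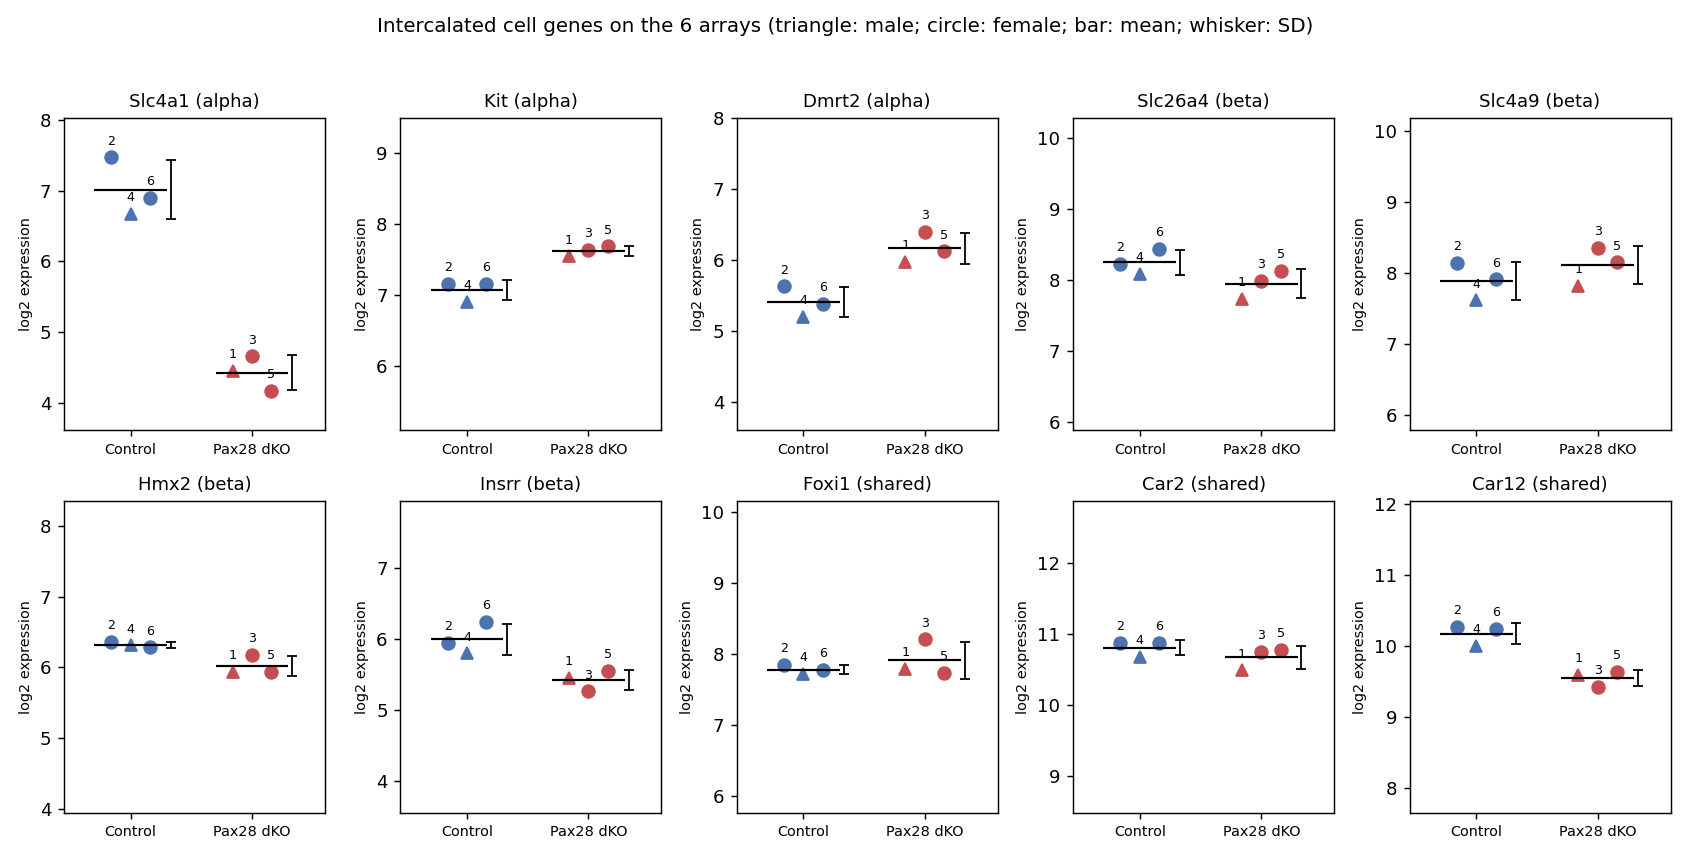
Log2 expression (vertical axis, with the same span in each panel) of the 10 members on the 3 Control arrays (blue) and the 3 arrays labelled Pax28 dKO (red), with replicate numbers above the points, triangles for males, bars for group means and whiskers for the SD. Slc4a1 separates the groups by 2.58 log2 units, Kit and Dmrt2 lie higher on the dKO arrays, Car12, Insrr and Hmx2 lie lower, and the groups overlap for Slc26a4, Slc4a9, Foxi1 and Car2.

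Promoter sequences, 250 bases before to 50 after the transcription start, were taken from a RefSeq table (build GRCm38.p6) for 6 of the 10 members. Those of the 3 called members among them are shown, because they are the sequences upstream of genes that changed in different directions. Kit had 2 largely overlapping promoters, of which the first is shown. Each was searched on both strands for TGTTTA, a core of forkhead factor sites, and for GCGTGAC, a core of paired-domain sites, which share no bases in these sequences. Matches are in capitals, all other bases in lower case.
Car12 (plus strand): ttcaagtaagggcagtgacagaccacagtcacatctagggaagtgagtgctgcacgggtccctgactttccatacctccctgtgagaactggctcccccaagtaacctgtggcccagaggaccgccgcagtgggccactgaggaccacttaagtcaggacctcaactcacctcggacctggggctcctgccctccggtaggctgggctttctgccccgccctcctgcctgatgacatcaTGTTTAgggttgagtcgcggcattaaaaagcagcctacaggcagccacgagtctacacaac
Dmrt2 (plus strand): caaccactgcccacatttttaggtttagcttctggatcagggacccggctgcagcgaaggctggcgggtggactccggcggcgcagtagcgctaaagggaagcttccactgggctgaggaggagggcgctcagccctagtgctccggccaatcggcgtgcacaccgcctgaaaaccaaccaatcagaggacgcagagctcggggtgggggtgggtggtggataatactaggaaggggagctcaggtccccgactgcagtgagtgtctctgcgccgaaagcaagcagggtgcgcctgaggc
Kit (plus strand): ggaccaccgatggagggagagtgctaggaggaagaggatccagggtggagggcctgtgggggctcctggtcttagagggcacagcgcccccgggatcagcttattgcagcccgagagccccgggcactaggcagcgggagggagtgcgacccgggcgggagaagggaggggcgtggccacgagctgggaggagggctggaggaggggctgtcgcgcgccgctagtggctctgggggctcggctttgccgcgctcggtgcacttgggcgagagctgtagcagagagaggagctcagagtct
Among the 8 promoters listed for the 6 members, 1 held the forkhead core, that of Car12, which begins 11 bases before the start (position -11), and 0 held the paired-domain core. Of 32851 promoters of 300 bases in the table, 13.4% held the forkhead core and 2.09% the paired-domain core. That count kept a chromosome whose entries were left out for the members, so a member without a promoter here may have an entry there. A match describes the letters only and says nothing of binding.

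Slc4a1 (Entrez gene 20533) encodes AE1, the exchanger through which alpha cells pass bicarbonate to the blood, and red blood cells use it as well. It measured 4.46, 4.66 and 4.18 log2 on dKO 1, 3 and 5, and 7.47, 6.67 and 6.90 on controls 2, 4 and 6. Every dKO array lay far below every control, and the gap exceeds the spread within either group. The group levels were 4.43 ± 0.24 against 7.01 ± 0.41 log2 (SD, n = 3 per group), and the log2 difference was -2.58 ± 0.21 (limma SE; 95% interval -3.07 to -2.08; limma adjusted p = 0.0028). By size this was number 6 among the decreases of all 22180 genes. It passed in 15 of 15 alternative analyses, 13 of them distinct, with differences between -2.76 and -2.36. Leaving out either male array gives the same fit as the females alone, because the sex term then absorbs the other male. In bulk tissue, fewer cells of a type and less RNA per cell cannot be told apart, here or for the other members.

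Red blood cell RNA was followed through 13 other measured genes, since Slc4a1 is also an erythroid gene, and the haemoglobin genes were not analysed here. None of the 13 was called by limma in either direction, and the list median was -0.09. An unadjusted p under 0.05 (limma) was reached by 3 of 13, all lower, where 10.5% of all genes were lower at that cut and 22% either way. Of the 13, 6 lay below 3.28 log2, the limit used for dim genes, on every array, among them Rhag, Kel and Gata1. Their summed linear level was 319 to 352 on the dKO arrays and 375 to 381 on the controls, mostly from Bpgm, a red cell glycolytic enzyme, so these sums did not overlap either. The part of red cells in the difference of Slc4a1 was not tested.

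Kit (Entrez gene 16590), the receptor tyrosine kinase for stem cell factor, measured 7.55, 7.64 and 7.69 log2 on dKO 1, 3 and 5 and 7.15, 6.90 and 7.16 on controls 2, 4 and 6. Every dKO array lay above every control. The log2 difference was 0.55 ± 0.08 (SE; 95% interval 0.37 to 0.74; limma adjusted p = 0.013). The call was lost without control 2 (adjusted p = 0.058), without control 6 (0.057) and without dKO 5 (0.055), with the difference between 0.51 and 0.58 in all alternatives. Kitl, which encodes the ligand of Kit, was also higher, at 7.34 ± 0.28 against 6.57 ± 0.22 log2 (SD, n = 3), a 1.71-fold difference (limma adjusted p = 0.011) whose call did not survive leaving out control 2 or control 6, dropping sex from the model or testing every row (adjusted p of 0.072 at most). Kit is expressed by mast cells too. Of 12 mast cell genes none was called by limma, and 10 lay below the dim limit on every array. An unadjusted p under 0.05 was reached by 2, both lower, where 10.5% of all genes were lower at that cut and 22% either way. The summed linear level of the 12 was 72 to 79 on the dKO arrays and 78 to 170 on the controls. Hdc, the histamine-forming enzyme and the most abundant of them, reached 5.76 on control 2 and 6.66 on control 6 (log2), both female. It was only 3.0 to 3.6 elsewhere, so the higher sums follow this gene. The part of mast cells in the difference of Kit was not tested.

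Dmrt2 (Entrez gene 226049), a DM-domain transcription factor found in alpha cells, measured 5.98, 6.40 and 6.12 log2 on dKO 1, 3 and 5 and 5.63, 5.20 and 5.39 on controls 2, 4 and 6. The groups did not overlap, with the lowest dKO value above the highest control. The log2 difference was 0.76 ± 0.11 (SE; 95% interval 0.50 to 1.02; limma adjusted p = 0.014). The call was lost without control 6 (adjusted p = 0.065), and in the model without sex the adjusted p was 0.054.

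The beta cell exchangers showed no called difference. Slc26a4 (Entrez gene 23985), pendrin, measured 7.74, 7.99 and 8.14 log2 on dKO 1, 3 and 5 and 8.23, 8.09 and 8.44 on controls 2, 4 and 6. The dKO arrays tend to the lower end, but dKO 5 exceeds control 4. The log2 difference was -0.30 ± 0.09 (SE; 95% interval -0.52 to -0.08; limma adjusted p = 0.12). Slc4a9 (Entrez gene 240215), the basolateral exchanger AE4 of beta cells, measured 7.82, 8.36 and 8.15 against 8.15, 7.62 and 7.91 log2. The ranges of the groups largely coincide, and the log2 difference was 0.22 ± 0.10 (SE; 95% interval -0.02 to 0.46; limma adjusted p = 0.27). The intervals of both genes lie within a 1.44-fold change in either direction.

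The beta cell regulators Hmx2 and Insrr had groups that did not overlap, yet neither passed. Hmx2 (Entrez gene 15372), a homeobox transcription factor, measured 5.94, 6.18 and 5.94 log2 on dKO 1, 3 and 5 and 6.36, 6.31 and 6.29 on controls 2, 4 and 6. The difference was -0.30 ± 0.09 (SE; 95% interval -0.52 to -0.07; limma adjusted p = 0.12). Insrr (Entrez gene 23920), a receptor of the insulin receptor family that responds to alkaline medium, measured 5.46, 5.27 and 5.56 against 5.95, 5.80 and 6.24 log2. Its difference of -0.57 ± 0.13 (SE; 95% interval -0.89 to -0.25) lay just outside the threshold, with a limma adjusted p of 0.053. Across alternatives its adjusted p ran from 0.033 to 0.15, and 4 of 15 called it lower. Of the 10 members, 4 had groups that did not overlap with the dKO arrays lower and 2 with the dKO arrays higher, against 10.8% and 11.7% of all genes.

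**Figure D2:**
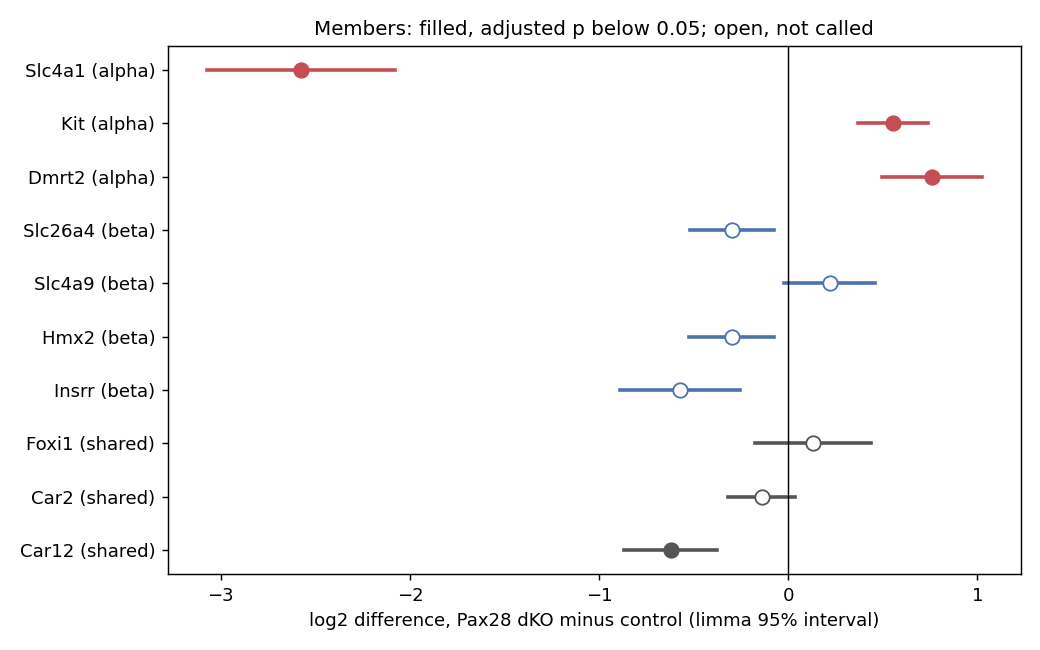
Log2 difference (horizontal axis, Pax28 dKO minus control, adjusted for sex) of each member with its limma 95% interval, coloured red for alpha, blue for beta and grey for shared genes, filled where the adjusted p was below 0.05 and open otherwise. Slc4a1 stands alone at -2.58, and the other 9 members lie between -0.62 (Car12) and 0.76 (Dmrt2).

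Foxi1 (Entrez gene 14233), the forkhead factor that intercalated cells depend on, measured 7.79, 8.20 and 7.73 log2 on dKO 1, 3 and 5 and 7.84, 7.72 and 7.78 on controls 2, 4 and 6. Apart from the higher value on dKO 3, all arrays lay close together. The log2 difference was 0.13 ± 0.13 (SE; limma adjusted p = 0.63), and its 95% interval of -0.18 to 0.44 leaves room for a change of at most 1.35-fold. Without dKO 3 the difference was -0.01. Car2 (Entrez gene 12349), the cytosolic carbonic anhydrase, measured 10.49, 10.75 and 10.78 against 10.88, 10.68 and 10.88 log2, overlapping values with a difference of -0.14 ± 0.07 (SE; 95% interval -0.32 to 0.04; limma adjusted p = 0.34).

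Car12 (Entrez gene 76459), a membrane-anchored carbonic anhydrase whose active site faces outward, measured 9.59, 9.43 and 9.64 log2 on dKO 1, 3 and 5 and 10.27, 10.0 and 10.24 on controls 2, 4 and 6. All dKO arrays lay below all controls. The log2 difference was -0.62 ± 0.10 (SE; 95% interval -0.87 to -0.37; limma adjusted p = 0.021). The call was lost in 4 of the 5 distinct analyses with 1 array left out: without control 2 (adjusted p = 0.087), control 6 (0.087), dKO 3 (0.059) and dKO 5 (0.064). Car2 and Car12 are also expressed by other tubule cells, so their values are not those of intercalated cells alone.

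Within each array, Slc4a1 was set against 3 other members, none of them called, to show how unequally they changed. All 3 pairs use the same Slc4a1 values, so they are not separate checks and largely restate its difference. Slc4a1 minus Slc26a4 was -3.27, -3.33 and -3.96 log2 on dKO 1, 3 and 5 and -0.76, -1.42 and -1.54 on controls 2, 4 and 6. The dKO arrays all lay lower, with a change between the group means of -2.28. Against Slc4a9 the change was -2.80, from -0.88 ± 0.18 to -3.68 ± 0.31 (SD, n = 3), and against Foxi1 it was -2.71, from -0.77 ± 0.35 to -3.47 ± 0.13. The groups did not overlap in any of the 3 pairs. The exact two-sided permutation p was 0.1 for each, and 0.1 after adjustment over the 3 pairs, which is the smallest that 3 against 3 arrays allow.

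**Figure D3:**
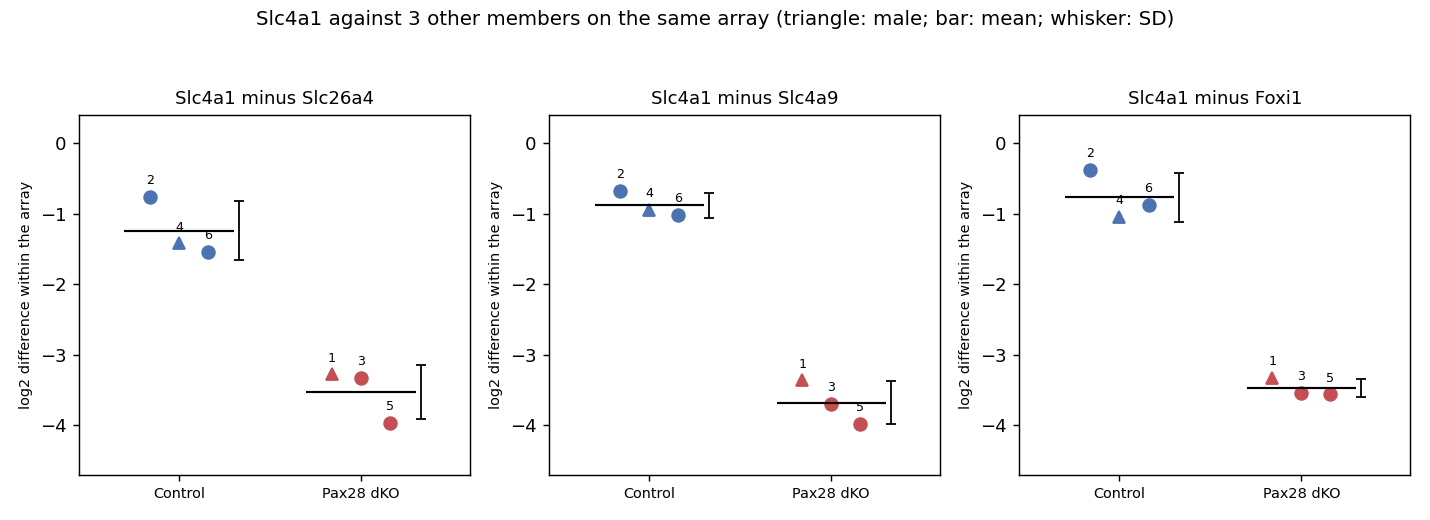
Difference in log2 value between Slc4a1 and Slc26a4, Slc4a9 or Foxi1 on the same array (vertical axis), for 3 Control arrays (blue) and 3 arrays labelled Pax28 dKO (red), with replicate numbers, triangles for males, bars for group means and whiskers for the SD. In each panel the dKO arrays lie below all controls, by 2.28, 2.80 and 2.71 between the means.

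Other genes of intercalated cells were taken from a list of 28, of which 27 were measured. Limma called 5 of the 27 lower and none higher, beside 3.08% and 4.12% of all genes, with a list median of -0.15. By unadjusted p under 0.05, 11 were lower and 1 was higher, beside 10.5% and 11.6% of all genes. The 3 largest decreases belonged to a water and anion channel and to ammonia transport. Aqp6, a channel of intracellular vesicles in alpha cells, averaged 6.03 ± 0.16 on the dKO arrays and 8.01 ± 0.40 log2 on the controls (SD, n = 3), 3.95-fold lower (limma adjusted p = 0.0037). Rhbg and Rhcg, the basolateral and apical ammonia transporters, which principal cells carry too, were 3.65-fold and 3.32-fold lower. These 3 passed in all 15 alternatives. Bsnd, the chloride channel subunit barttin, which the thick limb also uses, and Oxgr1, the alpha-ketoglutarate receptor of beta cells, were 1.73-fold and 1.48-fold lower. Leaving out control 2 or control 6 ended the call of Bsnd (adjusted p at most 0.053), and Oxgr1 lost it without control 2, control 6, dKO 3 or dKO 5 (up to 0.12). Both also lost it without sex in the model and with every row tested. The count called lower was 3 of 27 without control 2 and 3 of 27 without control 6.

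The 5 measured proton pump subunits enriched in these cells, Atp6v1b1, Atp6v0a4, Atp6v0d2, Atp6v1g3 and Atp6v1c2, were not called. Their log2 differences ran from -0.27 to 0.04, with a lowest adjusted p of 0.15. Atp6v1b1, the collecting duct form of the pump's B subunit, measured 8.86, 9.22 and 9.10 log2 on dKO 1, 3 and 5 and 9.49, 8.96 and 9.49 on controls 2, 4 and 6, with both males at the low end of their groups. The gastric-type proton pump gene Atp4a was lower by -0.52 ± 0.13 (SE) and did not pass (limma adjusted p = 0.060). Hepacam2 and Spink8 differed by 0.16 and 0.27 and did not pass either.

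**Figure D4:**
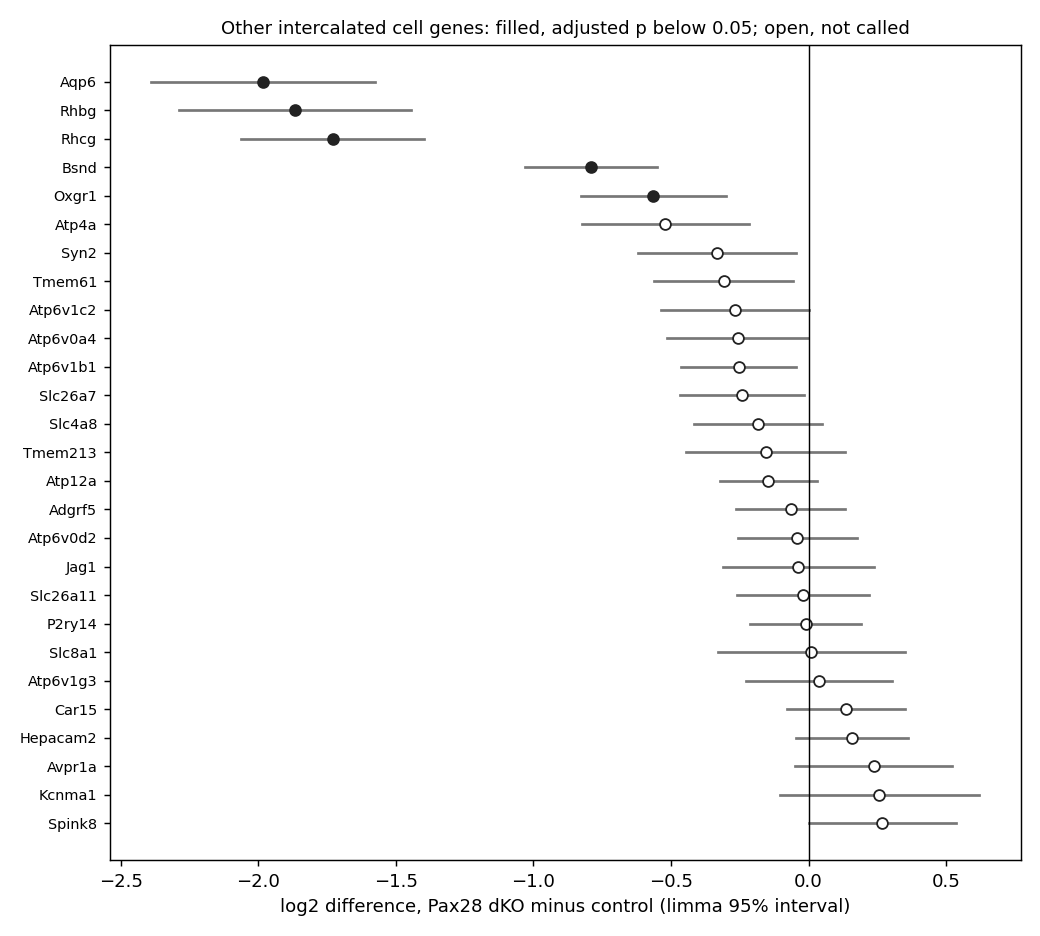
Log2 difference (horizontal axis, Pax28 dKO minus control) with its limma 95% interval for the 27 measured intercalated cell genes that are not among the 10 members, ordered by size, filled where the adjusted p was below 0.05. Aqp6, Rhbg, Rhcg, Bsnd and Oxgr1 are the 5 filled points at the low end, and the 22 open points lie between -0.52 and 0.27.

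The relatives of the exchangers and anhydrases were mostly not called. Over all genes, 3.08% were called lower and 4.12% higher. Among 9 measured SLC4 bicarbonate transporters, Slc4a1 was called lower and Slc4a11, a distant member of the family, 1.93-fold higher (limma adjusted p = 0.011, lost without control 2 at 0.054 and in the model without sex or with every row tested, up to 0.12), with a median of -0.04. Among 11 SLC26 exchangers, Slc26a10 was called 1.84-fold lower and the median was -0.12. Of 14 carbonic anhydrases 3 were called lower and 1 higher, with a median of -0.13. Besides Car12 these were mitochondrial Car5b (-0.88 ± 0.12, SE) and membrane-anchored Car4 (-0.33 ± 0.07), both lower, and cytosolic Car13 (0.56 ± 0.12). Car4 and Car13 lost their calls with any 1 array left out, without sex in the model and with every row tested (adjusted p up to 0.59 and 0.18). The groups overlapped for Car4. Car13 also lost its call after median centring or quantile normalization. Car5b lost its call without control 2, control 6 or dKO 5 (adjusted p up to 0.065) and with every row tested. Among 13 relatives of Foxi1, Hmx2, Dmrt2, Insrr and Kit, the ligand gene Kitl was called and the other 12 were not, with a median of -0.09.

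Regulators of the choice between principal and intercalated fate were read from 34 measured genes of the Notch pathway and collecting duct transcription factors. Limma called 2 higher and 1 lower, beside 4.12% and 3.08% of all genes, and the median was 0.10. The Notch feedback gene Nrarp was 1.64-fold higher (5.34 ± 0.32 against 4.63 ± 0.18 log2, SD, n = 3; limma adjusted p = 0.0095) and the coactivator Maml3 was 1.46-fold higher (limma adjusted p = 0.028). Nrarp missed the threshold in the fits that omit control 2 or control 6 and in the model without sex or with every row tested (adjusted p up to 0.093), and Maml3 with any 1 array left out and in both of those analyses. The ligand Jag1 (-0.04), the receptors Notch1 (0.31) and Notch2 (-0.02) and the target Hes1 (0.15) did not pass, the lowest adjusted p being 0.072 for Notch1. Elf5, a transcription factor of principal cells, was 2.08-fold lower (limma adjusted p = 0.0089) and kept its call with any 1 array left out, but in the model without sex its adjusted p was 0.10. Tfcp2l1, which both cell types need, differed by 0.15.

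Markers of some other cells also moved with the groups. Of all genes, 3.08% were called lower and 4.12% higher. Of 15 principal cell genes 8 were called lower, among them Elf5, already counted above, and none higher (median -0.88). The count called lower was 6 without sex in the model, and 5 without control 2, without control 6 or with every row tested. The summed linear level of the 15 was 3126 to 3703 on the dKO arrays and 4324 to 6067 on the controls. The smallest p-values there belonged to Fxyd4, a regulator of the sodium pump (log2 difference -2.19), Hsd11b2, which inactivates glucocorticoids (-2.04), the peptide hormone gene Apela (-1.46) and the vasopressin receptor gene Avpr2 (-1.10). The 7 principal cell genes that were not called differed by -0.31 to 0.28. Among them was the most abundant gene of that list, the sodium channel gene Scnn1a (0.22). Of 10 macrophage genes 8 were called higher and none lower (median 1.38), with sums of 992 to 1741 against 512 to 581. Of 10 proximal tubule genes 3 were called lower (median -0.34; sums of 15047 to 22126 against 23726 to 25010), and of 7 thick ascending limb and distal tubule genes 1 was called higher (median 0.03; sums of 8870 to 11249 against 8834 to 10144). None of 6 adipocyte genes was called by limma or had an unadjusted p under 0.05 (median -0.35), but their sums were highest on controls 2 and 6, at 1442 and 1137 against 464 to 948 on the other arrays. The most abundant genes of these marker lists were Csf1r for macrophages (log2 difference 0.47, not called), Slc27a2 for the proximal tubule (-0.15, not called), Umod for the thick limb (0.31, not called) and Fabp4 for adipocytes (-0.10, not called). The part of these cells in the members' differences was not tested. The 27 other intercalated genes summed to 4669 to 5875 on the dKO arrays and 5322 to 7497 on the controls, which overlapped.

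The genotype difference of the members did not depend detectably on sex. For Slc4a1 it was -2.76 in females and -2.21 in males, for Car12 -0.72 and -0.41, for Kit 0.51 and 0.65 and for Dmrt2 0.75 and 0.77. Limma's genotype by sex term was called for 0 of 10 members (lowest adjusted p 0.83), where 0.00451% of all genes were called. An unadjusted p under 0.05 for that term was reached by 0 of 10 members and by 1551 of all 22180 genes. The other intercalated genes reached it in 4 of 27 cases, none of them called. With 1 male in each group this term has little precision. Its SE was 0.41 for Slc4a1.

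The genes whose values over the 6 arrays were most like those of Slc4a1, by Pearson's r among 15199 other genes above the dim limit, were Smim27, S100g, Ddrgk1, Cox6a2 and Gm128, with r between 0.990 and 0.999. At the lower cut of r above 0.9 there were 469 of these genes, and all arrays share the split by genotype. Among the members, r with Slc4a1 was 0.94 for Car12, 0.91 for Hmx2, 0.84 for Insrr, 0.67 for Slc26a4 and 0.56 for Car2. It was -0.26 for Foxi1, -0.31 for Slc4a9, -0.82 for Dmrt2 and -0.89 for Kit. Over arrays split by genotype, such values largely restate the group differences given above. They do not show that the genes ran against each other within a group. Slc4a1, Dmrt2 and Kit were all lowest among the controls on control 4. Of the dKO arrays, Slc4a1 and Dmrt2 were highest on dKO 3 and Kit on dKO 5.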

How the data were processed

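The authors deposited a log2 value for each transcript cluster of Affymetrix Mouse Gene 2.1 ST arrays, hybridised with cDNA from 400 ng of RNA. The submitters' processing notes list RMA, limma and R 3.4.0 but do not say what each did, and a filter, if any, is not given in the sources used here. No further normalization was applied. Median log2 values were 3.81 to 3.87 per array, and Pearson's r between arrays across clusters was 0.977 to 0.991. Of 41345 clusters, the platform annotation gave 1 symbol for 23521, of which 23328 matched RefSeq GRCm38.p6 by gene identifier, and the highest-mean cluster per symbol left 22180 genes. No build is given for the arrays, so no coordinates are printed.

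Differences were fitted with limma 3.58.1 in R 4.3.3 (genotype and sex, default empirical Bayes, 3 residual and 6.72 total degrees of freedom). The fitting code was checked on simulated data. Benjamini-Hochberg adjustment ran over all genes at 0.05. Dim genes are those below 3.28 log2, the median of the clusters without a symbol. Linear levels are 2 to the power of the log2 value. The 6 arrays limit the precision. The members and the 13 gene lists were chosen with earlier results of these data known. Named are all members, up to 4 called genes per direction in the 7 wider lists, Jag1, Notch1, Notch2 and Hes1, counts, sums and the most abundant gene of the marker lists, and the 5 genes most like Slc4a1. Atp6v1b1, Atp4a, Hepacam2, Spink8, Tfcp2l1, Rhag, Kel, Gata1, Oxgr1 and Scnn1a were chosen after their values were seen. Alternatives are given in the closing section.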

Additional observations from a re-analysis of the deposited data

How the results depend on the processing

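The alternatives changed the samples (females only, or any single array omitted), the model (sex dropped, array weights, or a prior that is trended and robust), the scaling (median centring or quantile normalization) and the genes tested (dim genes removed, clusters of a gene averaged, or every row of the table). Slc4a1 kept its direction and call in all of them, and Slc26a4, Slc4a9, Hmx2 and Car2 kept their direction and stayed uncalled. Kit gave adjusted p = 0.062 with every row tested at an unchanged difference of 0.55, and 0.51 to 0.58 (adjusted p 0.041 to 0.058) with single arrays left out. Dmrt2 stayed at 0.76 without sex in the model and with every row tested (adjusted p = 0.054 and 0.067), and ran from 0.68 to 0.84 with single arrays left out. Car12 stayed at -0.62 with every row tested (adjusted p = 0.084) and ran from -0.72 to -0.53 with single arrays left out. Insrr was called lower at -0.57 with the trended robust prior and with dim genes removed, at -0.57 with array weights and at -0.62 after quantile normalization. Foxi1 changed sign without dKO 3, at -0.012, and ran from -0.012 to 0.26 with single arrays left out. The number of members called lower was 1 with every row tested and 1 to 2 with single arrays left out, and the number called higher was 1 without sex, 0 with every row tested and 0 to 2 with single arrays left out. The intercalated list had 3 called lower without sex and with every row tested, and 3 to 6 with single arrays left out. Over all genes, 683 were called lower and 913 higher. Without sex these counts were 167 and 304, and with every row tested 103 and 199. With single arrays left out they ran from 126 to 574 and from 218 to 675. After median centring they were 791 and 773 and after quantile normalization 742 and 788, so the excess of higher calls was lost or smaller. A test of every row adjusts over 41345 rows; for the other changes the cause was not tested. Median centring moved the median of all genes to -0.04. The within-array differences in females alone were -2.49, -2.99 and -2.92 for Slc26a4, Slc4a9 and Foxi1. No paired analysis was possible because the groups share no replicate number.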

Other observations

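The male arrays tended to hold the lowest intercalated cell values of their groups. Control 4 was the lowest control for 9 of the 10 members, all except Hmx2, and for 20 of the 27 other intercalated genes (74.1%), where 39.2% of all genes had that array lowest. Pax28 dKO 1 was the lowest of its group for 6 of 10 members and 19 of 27 other intercalated genes (70.4%), against 40.9% of all genes. The male minus female difference, fitted with genotype, was negative for 10 of 10 members and for 54.9% of all genes, from -0.42 (Slc4a9) to -0.07 (Hmx2), with a median of -0.21 against -0.02 over all genes. None of the 10 passed limma's adjusted test, the lowest adjusted p being 0.12 for Slc4a9. Among the other intercalated genes 2 of 27 passed, where 1.87% of all genes did: the purinergic receptor gene P2ry14 (-0.63, adjusted p = 0.027) and Car15 (-0.61, adjusted p = 0.037), both lower in males and named after their values were seen. With 1 male array in each group, sex and the single array cannot be told apart within a group.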
